A study of Mus musculus with 9 samples.

Results

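Lysosomal hydrolases, cathepsins and the proteins that surround them were followed across 3 subpopulations of activated hepatic stellate cells (aHSCs), the scar-forming pericytes of the injured liver. The genes were the 33 of a fixed list, found by their symbol in the array annotation. Of these, 32 genes were represented, by 72 probes, and 59 of those probes were detected on at least 3 arrays. All 32 genes had at least 1 such probe on all 3 arrays of every group. The list was set against 14659 gene symbols with a detected probe. All cells came from C57/Bl6 mice of the WT1GFP/+ genotype, in which green fluorescent protein is knocked in at the locus of the transcription factor WT1. Every group therefore carried the reporter allele. The labels give all mice as male, although the study's methods name both sexes for its culture work. The mice of the in vivo groups were injured as young adults. WT1-high and WT1-intermediate cells were GFP-high and GFP-low cells sorted from livers injured chronically with carbon tetrachloride (3 arrays each, numbered 1, 8 and 29, and 1, 8 and 30). WT1-negative cells lacked GFP and came, per the study, from uninjured livers. They were sorted once they had been activated for 7 days in culture (3 arrays, numbered 3, 11 and 14). In vivo and culture origin, and injury of the donor, coincided with WT1 status in both comparisons with WT1-negative cells. The effects of WT1 status, origin and injury cannot be told apart there.

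Lysosomes are acidic organelles in which cathepsins and other peptidases cut proteins, glycosidases and sulfatases take apart glycans, and lipid-handling enzymes with their activator proteins break down membrane lipids. Most of the soluble enzymes reach the lysosome through a mannose 6-phosphate tag, while LAMP proteins and the tetraspanin CD63 form much of its membrane. In the liver, Kupffer cells and other macrophages are known for a large lysosomal compartment. Cathepsins can also be released, and several of them degrade collagen or elastin. Many lysosomal genes carry a short palindromic E-box element, the CLEAR element, which is bound by transcription factors of the MiT family (TFEB, TFE3, MITF and TFEC).

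The promoter windows of RefSeq (build GRCm38.p6, 250 bases before to 50 bases after each transcription start) were searched for the core letters of that element, CACGTG, and for the longer form TCACGTGA, which contains the shorter one. Both are their own reverse complement, so 1 search covered both strands. Windows were given for 28 of the 33 genes, and not for Asah1, Ctsb, Ctsh, Galns and Npc1. CACGTG was found in 10 of the 28 genes (35.7%), namely Ctsa, Ctsd, Lamp1, Glb1, Naglu, Gaa, Sgsh, Lgmn, Ctsl and Gla. Over all 27025 genes with a window the share was 8.09%. The longer form was found in 3 of the 28 genes (Ctsa, Ctsd and Gla, 10.7%) and in 1.13% of all genes. The stretches below are shown because they hold the longer form, or, in Lamp1, because 4 copies of the shorter form lie within the printed stretch just before the start. Bases before the start are printed 5′ to 3′ on the strand of the gene, with the matched letters in capitals.
Ctsa (chr2:164833745-164833772, plus strand): acaatgagcaaactgTCACGTGAtgcag
Ctsd (chr7:142387904-142387941, minus strand): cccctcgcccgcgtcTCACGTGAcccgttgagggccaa
Lamp1 (chr8:13159085-13159160, plus strand): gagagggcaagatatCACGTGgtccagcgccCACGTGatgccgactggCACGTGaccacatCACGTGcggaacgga
Gla (chrX:134601178-134601248, minus strand): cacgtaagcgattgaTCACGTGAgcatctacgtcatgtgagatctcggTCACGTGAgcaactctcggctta
These matches describe letters in a window and not occupied sites. Of the MiT genes, the probe of Tfe3 was detected (log2 level 6.95, 6.88 and 7.25 in WT1-high, WT1-intermediate and WT1-negative cells), and it was called in no comparison. The probes of Tfeb, Mitf and Tfec were not detected on 3 arrays.

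Levels are given as log2 of background-corrected, quantile-normalised intensity. Because probes differ in brightness, a level was compared between groups and never between genes. Where several probes were detected for a gene, the brightest stood for it. A gene was called when limma's adjusted p, taken over all 20573 detected probes, was under 0.05. Differences are log2 differences between group means, and each error is named as an SD of 3 arrays or an SE of the fit. Mean signals per array lay between 147 and 289, and 38.1% to 43.7% of gene probes were detected per array.

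The cell populations were first checked against cell type markers, since lysosomal genes are abundant in phagocytes. Of 20 macrophage markers, 18 were detected on at least 3 arrays. All 18 were lower in the WT1-high population than in the WT1-intermediate one, by a median of 1.70 on the log2 scale, and 12 of the 18 were called. Of all gene symbols, 2.87% were called lower there. Their summed linear level was 6200 to 9782 per array for WT1-high cells, 19309 to 33154 for WT1-intermediate cells and 53400 to 58000 for WT1-negative cells. In WT1-high against WT1-negative cells, 1 marker was called higher and 11 lower (median -2.04), where 27.6% of all gene symbols were called higher and 32.1% lower. In WT1-intermediate against WT1-negative cells 6 were called higher and 6 lower (median -0.35). These counts lay near the shares of all symbols there, 25.9% higher and 32% lower. Those lower in the latter comparison included C1qa (-2.60), and those higher included Lyz1 (4.48) and Marco (2.37). The Kupffer cell markers Clec4f and Timd4 were detected on no WT1-negative array, but Marco and Vsig4 on all 3 (mean levels 6.78 and 7.39). Cd5l and Ccr2 were detected on no array at all. Of 14 stellate cell markers, 10 were kept, Gfap, Lhx2 and Rgs5 were detected in no group, and Lrat on no WT1-intermediate or WT1-negative array. The summed linear level of the stellate markers was 13461 to 15957 (WT1-high), 14716 to 18892 (WT1-intermediate) and 3847 to 5412 (WT1-negative). In WT1-high against WT1-intermediate cells Des was called higher, and Pdgfrb and Hgf lower. Against WT1-negative cells, 4 were called higher and 4 lower in WT1-high cells, and 4 and 3 in WT1-intermediate cells. Of 8 endothelial markers, 6 were lower in WT1-high cells than in WT1-intermediate cells, with a median difference of -0.72, and Stab2 and Tek were called. All 8 mesothelial markers were called higher in both in vivo groups than in culture (medians 6.57 and 6.05). Of 6 T and NK cell markers, Cd8a and Ncr1 were detected in no group, and 4 and 3 of the other 4 were called higher. Gpm6a, Krt19, Lrrn4, Cd3e and Nkg7 were, like Clec4f and Timd4, detected on no WT1-negative array. They passed the detection filter through the in vivo groups alone, so their calls against culture follow in part from that filter. Within the in vivo pair, all 8 mesothelial (median 0.54) and all 5 detected hepatocyte markers (0.78) were higher in WT1-high cells. All 5 detected neutrophil (-0.49) and 2 detected B cell markers (-0.29) were lower, and T and NK cell markers were mixed (-0.10). None of these was called. At an unadjusted p under 0.05, 4 mesothelial and 1 each of the hepatocyte, B cell and T and NK cell markers passed. Of all 14659 gene symbols, 2578 passed. Macrophage markers fell with the lysosomal genes from WT1-intermediate to WT1-high cells and were mostly lower in WT1-high than in cultured cells, without 1 direction in the remaining comparison. The part of these marker sets in the results below was not tested. In such bulk samples fewer cells of a type and less RNA per cell cannot be told apart.

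**Figure D1:**
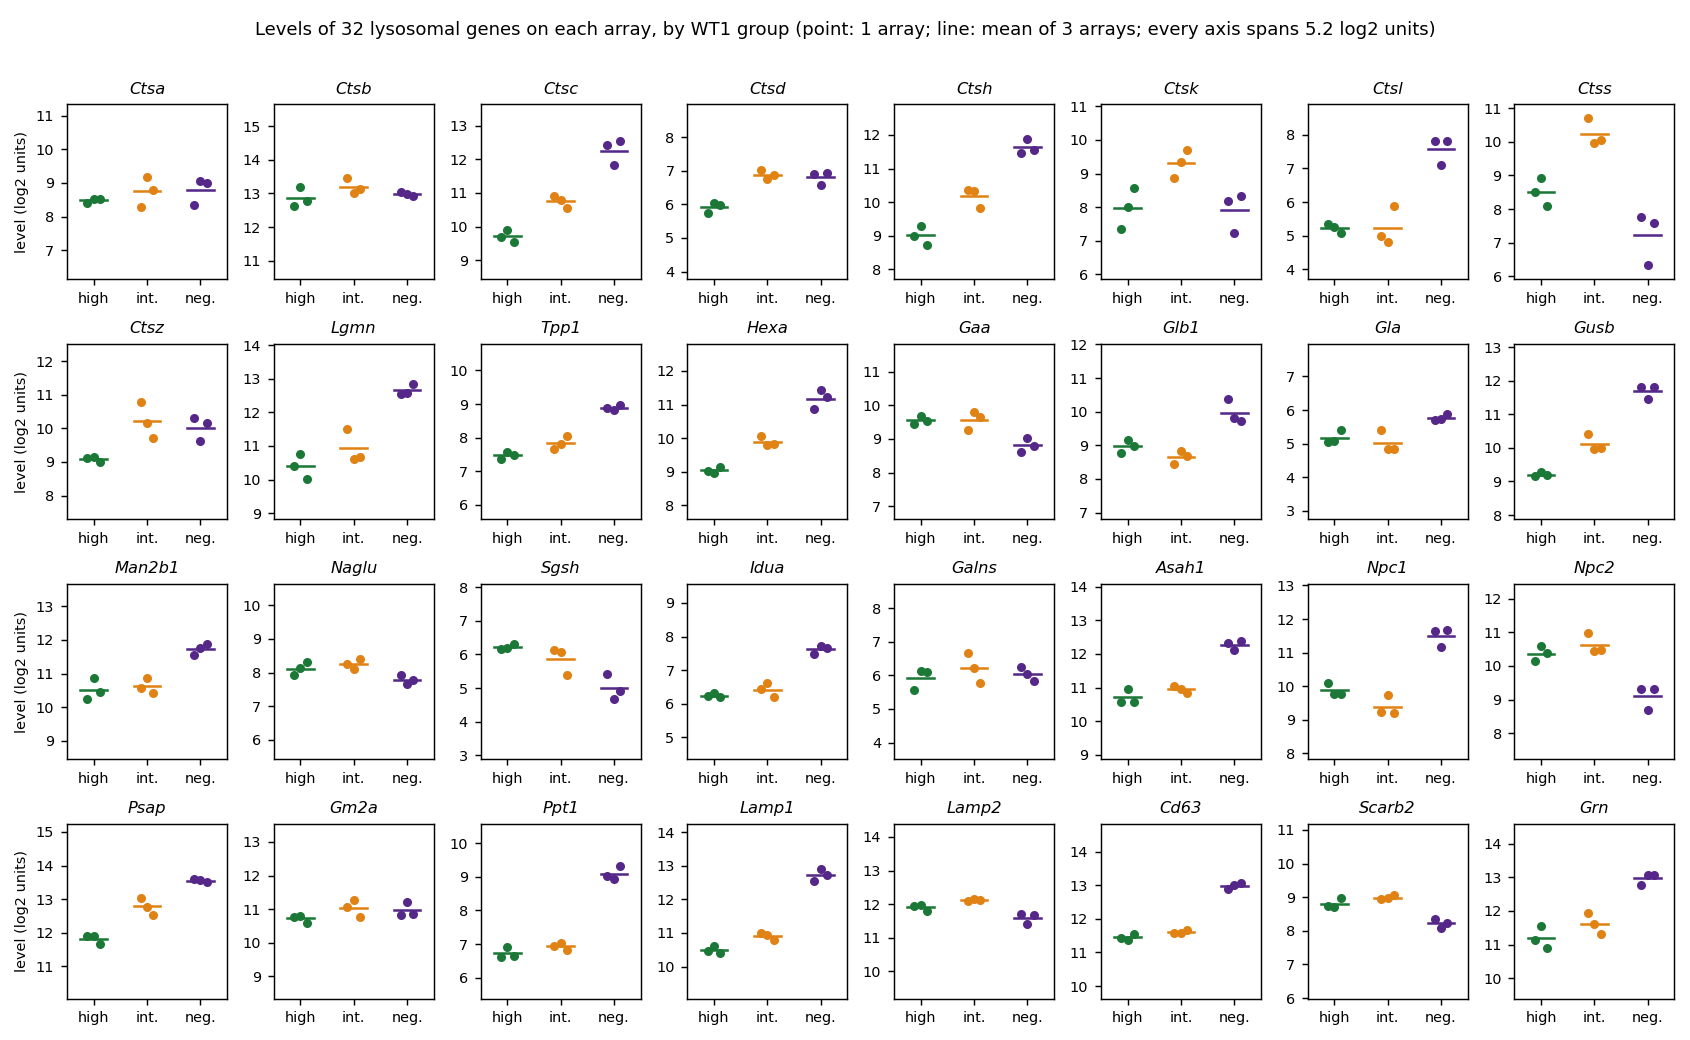
Level of each of the 32 lysosomal genes (vertical axis, log2 units, every panel spanning 5.2 units) on each array, by WT1 group (horizontal axis), with points for arrays and lines for the mean of 3 arrays. Ctsc, Ctsh, Gusb, Hexa and Psap stepped up from WT1-high through WT1-intermediate to WT1-negative cells, whereas Ctss was highest in WT1-intermediate cells and lowest in WT1-negative cells.

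The first comparison asked how lysosomal genes differed between the WT1-positive populations of the fibrotic liver. WT1-high cells had lower levels of 8 of the 32 genes and higher levels of 0, while 24 were not called. Over all gene symbols, 2.87% were called lower and 0.962% higher in this comparison. The median difference of the 32 genes was -0.28, against 0.04 over all gene symbols, and 27 of the 32 differences were negative. The 8 genes were 5 peptidases (Ctss, Ctsh, Ctsz, Ctsc and Ctsd), the glycosidases Gusb and Hexa, and Psap. At an unadjusted p under 0.05, 12 of the 32 genes passed, beside 2578 of all 14659 gene symbols. No adjustment for shared animals was made in this fit. Arrays with matching numbers deviated together, and with the replicate number as a random block 0 genes were called higher and 9 lower, the addition being Ctsk.

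Cathepsin S, a cysteine protease of antigen-presenting cells that trims the invariant chain of MHC class II and degrades elastin, had the largest difference. Ctss levels were 8.49, 8.91 and 8.10 in WT1-high cells, 10.70, 9.97 and 10.05 in WT1-intermediate cells, and 7.77, 6.32 and 7.58 in WT1-negative cells. The WT1-intermediate arrays were the 3 highest and the WT1-negative arrays the 3 lowest, with no overlap between groups. WT1-high cells were 3.34-fold lower than WT1-intermediate cells (log2 difference -1.74, SE 0.36, limma adjusted p = 0.024), and each of the 3 array pairs from shared animals went the same way (-2.21, -1.07 and -1.95).

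The gene next to Ctss on chromosome 3, with 0 protein-coding genes between them, is Ctsk. It encodes cathepsin K, a collagenase best known from osteoclasts. Ctsk levels were 7.35, 8.02 and 8.57 in WT1-high cells, 8.88, 9.34 and 9.69 in WT1-intermediate cells, and 8.19, 7.23 and 8.32 in WT1-negative cells. The 3 WT1-intermediate arrays lay above all others. The difference of WT1-high from WT1-intermediate cells was -1.32 (SE 0.35) and was not called without a block (limma adjusted p = 0.065), but it was called with the random replicate block (limma adjusted p = 0.013) and with animals as a fixed replicate block (limma adjusted p = 0.013).

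Cathepsin H and cathepsin C are aminopeptidases, the latter being the activator of granule serine proteases in leukocytes. Ctsh levels were 9.01, 9.29 and 8.73 in WT1-high cells, 10.35, 10.33 and 9.83 in WT1-intermediate cells, and 11.46, 11.88 and 11.55 in WT1-negative cells. The groups did not overlap and rose in that order. WT1-high cells were 2.23-fold lower than WT1-intermediate cells (log2 difference -1.16, SE 0.20, limma adjusted p = 0.011), and both detected Ctsh probes were called. Ctsc levels were 9.70, 9.89 and 9.53 in WT1-high cells, 10.92, 10.80 and 10.54 in WT1-intermediate cells, and 12.41, 11.84 and 12.53 in WT1-negative cells. Ctsc stood in the same order, again without overlap, and fell 2.07-fold short in WT1-high cells of its WT1-intermediate level (log2 difference -1.05, SE 0.20, limma adjusted p = 0.017).

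Cathepsin Z is a carboxypeptidase, and cathepsin D the main aspartic protease of the lysosome. For both, the level in WT1-intermediate cells did not differ from that in WT1-negative cells beyond the spread of the arrays. Ctsz levels were 9.11, 9.13 and 9.01 in WT1-high cells, 10.79, 10.15 and 9.71 in WT1-intermediate cells, and 10.30, 9.61 and 10.15 in WT1-negative cells. The WT1-high arrays were the lowest 3, and the other groups overlapped. WT1-high cells were lower than WT1-intermediate cells by 2.19-fold (log2 difference -1.13, SE 0.26, limma adjusted p = 0.037). Ctsd, whose promoter stretch is printed above, had levels of 5.91 ± 0.16 (WT1-high), 6.88 ± 0.13 (WT1-intermediate) and 6.80 ± 0.19 (WT1-negative) (SD, n = 3 arrays each). Its WT1-high level was 1.95-fold below the WT1-intermediate one (log2 difference -0.97, SE 0.16, limma adjusted p = 0.0078).

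Beta-glucuronidase (Gusb), which removes glucuronic acid from glycosaminoglycans, and the alpha subunit of beta-hexosaminidase (Hexa), the gene of Tay-Sachs disease, were the called genes among 10 glycosidases and sulfatases. Gusb levels were 9.15, 9.27 and 9.19 in WT1-high cells, 10.40, 9.95 and 9.99 in WT1-intermediate cells, and 11.81, 11.47 and 11.80 in WT1-negative cells. Neither pair of neighbouring groups overlapped. The difference of WT1-high from WT1-intermediate cells was -0.91 for Gusb (SE 0.17, limma adjusted p = 0.014) and -0.86 for Hexa (SE 0.17, limma adjusted p = 0.020). The Gusb call was lost with the Gusb probe of largest variance (-0.48, limma adjusted p = 0.22) and with median scaling (limma adjusted p = 0.078). The other 8 genes of this role lay between -0.30 (Galns) and 0.36 (Sgsh) and were not called. Among 6 lipid-handling genes, the difference of Psap was called, and the others lay between -0.31 (Gm2a) and 0.49 (Npc1). Psap encodes prosaposin, from which the saposins that present sphingolipids to their hydrolases are cut. Its level rose from 11.82 ± 0.13 in WT1-high cells to 12.79 ± 0.26 in WT1-intermediate cells and 13.56 ± 0.05 in WT1-negative cells (SD, n = 3 arrays each), a difference of -0.96 between the in vivo groups (SE 0.16, limma adjusted p = 0.0088) that was just uncalled with the Psap probe of largest variance (-0.77, limma adjusted p = 0.051). None of the 4 membrane protein genes was called in limma's test, and their differences lay between -0.43 (Lamp1) and -0.16 (Cd63). At an unadjusted p under 0.05, 1 of the 4 passed, beside 2578 of all 14659 gene symbols.

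**Figure D2:**
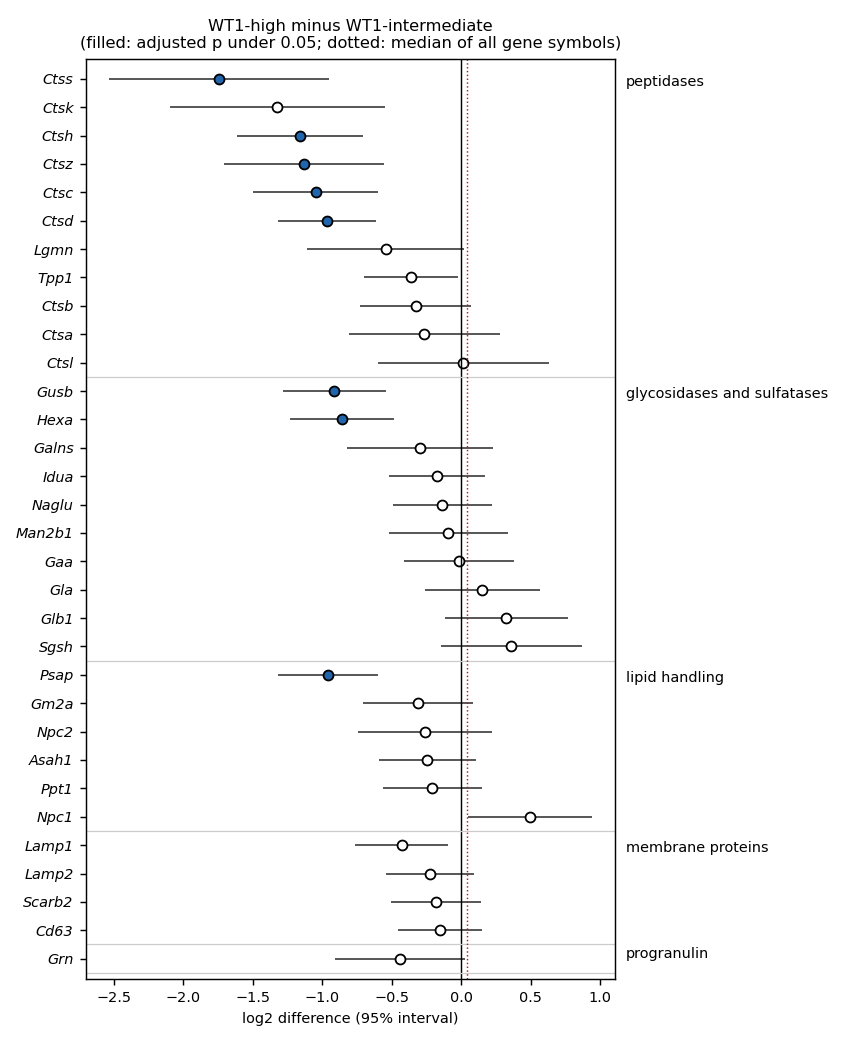
Log2 difference of WT1-high minus WT1-intermediate cells for each of the 32 genes, grouped by role, with 95% intervals of the limma fit (horizontal axis) and filled points for genes with an adjusted p under 0.05. The 8 called genes lie between -1.74 (Ctss) and -0.86 (Hexa), and Ctsk at -1.32 is uncalled with a wide interval from -2.09 to -0.56.

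The calls among WT1-positive cells differed in how much they rested on single arrays. Ctsd and Ctsh were called under all 20 alternatives of processing or array choice, with adjusted p up to 0.033 for Ctsd and 0.05 for Ctsh, whereas Ctsz lost its call under 12 of the 20. Across these alternatives the difference ranged from -1.03 to -0.51 for Ctsd and from -1.33 to -0.96 for Ctsh. Without WT1-high array 1 the number of genes called lower was 5 (Ctss, Ctsz and Hexa lost), and without WT1-intermediate array 1 it was 4 (Ctss, Ctsc, Ctsz and Hexa lost). The adjusted p of Ctss was 0.059 without the former array, 0.10 without the latter and 0.085 without WT1-high array 29.

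Lipa, the gene of lysosomal acid lipase, had no probe under that symbol or as a synonym, and it is not counted above. The array carried 2 probes under the name Lip1, which RefSeq lists as an older name of Lipa. The brighter had levels of 8.38 ± 0.37 (WT1-high), 9.37 ± 0.40 (WT1-intermediate) and 10.13 ± 0.04 (WT1-negative) (SD, n = 3 arrays each). Its WT1-high level was 1.97-fold below the WT1-intermediate one (log2 difference -0.98, SE 0.23, limma adjusted p = 0.038). The dimmer probe gave a log2 difference of -0.97 (limma adjusted p = 0.049) in the same comparison.

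The other comparisons set both WT1-positive populations from the liver against WT1-negative cells from culture. WT1-high cells had lower levels of 20 of the 32 genes and higher levels of 5, and 7 were not called. Over all gene symbols, 32.1% were called lower and 27.6% higher. WT1-intermediate cells had lower levels of 18 genes and higher levels of 8, and 6 were not called, where 32% of all symbols were called lower and 25.9% higher. Median differences over the 32 genes were -1.10 and -0.91, against -0.07 and -0.10 over all gene symbols. Both comparisons share the WT1-negative arrays, so they are not independent of each other.

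Ctsh, Ctsc and Gusb were the genes lowest in WT1-high relative to WT1-negative cells. The difference was -2.62 for Ctsh (6.16-fold, SE 0.20, limma adjusted p = 1.1e-06), -2.56 for Ctsc (5.89-fold, SE 0.20, limma adjusted p = 1.2e-06) and -2.49 for Gusb (5.63-fold, SE 0.17, limma adjusted p = 3.6e-07). In WT1-intermediate cells the same genes differed from WT1-negative cells by -1.46, -1.51 and -1.58. Hexa differed by -2.14 (WT1-high) and -1.28 (WT1-intermediate), and Psap by -1.73 and -0.77.

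The largest falls of WT1-intermediate relative to WT1-negative cells were those of Ctsl, Ppt1 and, by its brightest probe, Npc1 (-2.11, against 1.64 by another probe described further on). Ctsl encodes cathepsin L, a broad endopeptidase of the lysosome. Its levels were 5.36, 5.27 and 5.09 in WT1-high cells, 4.99, 4.80 and 5.88 in WT1-intermediate cells, and 7.81, 7.11 and 7.80 in WT1-negative cells. The in vivo groups overlapped each other and lay well below culture, with differences of -2.34 for WT1-high (SE 0.28, limma adjusted p = 2.7e-05) and -2.35 for WT1-intermediate cells (SE 0.28, limma adjusted p = 3.1e-05). Ppt1 encodes palmitoyl-protein thioesterase, which strips fatty acids from proteins. Its levels were 6.62, 6.91 and 6.63 in WT1-high cells, 6.94, 7.04 and 6.81 in WT1-intermediate cells, and 9.02, 8.93 and 9.32 in WT1-negative cells. Here too the in vivo groups overlapped, and the differences from culture were -2.37 and -2.16 (SE 0.16 each, limma adjusted p = 3.7e-07 and 9.8e-07). The difference between the in vivo groups was 0.01 for Ctsl (95% interval -0.59 to 0.62) and -0.21 for Ppt1 (95% interval -0.56 to 0.14).

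Lamp1, an abundant glycoprotein of the lysosomal membrane whose promoter held 4 copies of the short element, was also far below culture in vivo. Its levels were 10.46, 10.61 and 10.39 in WT1-high cells, 11.00, 10.94 and 10.80 in WT1-intermediate cells, and 12.53, 12.89 and 12.74 in WT1-negative cells. No groups overlapped, and the differences from culture were -2.23 and -1.81 (SE 0.15 each, limma adjusted p = 3.4e-07 and 2.1e-06). Progranulin (Grn), a secreted growth factor that is also carried to lysosomes and cut there, was 11.12, 11.54 and 10.89 in WT1-high cells, 11.95, 11.60 and 11.33 in WT1-intermediate cells, and 12.78, 13.08 and 13.07 in WT1-negative cells. All WT1-negative arrays were above all in vivo arrays, the differences from culture being -1.79 and -1.35 (SE 0.21 each, limma adjusted p = 2.5e-05 and 0.00023). Legumain (Lgmn), the asparaginyl endopeptidase that processes cathepsins, differed by -2.26 and -1.72, and the tetraspanin gene Cd63 by -1.54 and -1.38. The acid ceramidase gene Asah1 differed by -1.56 and -1.32, and the tripeptidyl peptidase gene Tpp1 by -1.41 and -1.05. Idua, Man2b1, Glb1 and Gla were also called lower in both in vivo groups, with differences between -1.38 (Idua) and -0.59 (Gla) in WT1-high cells. The Gla call of WT1-high cells was lost without WT1-high array 1 (limma adjusted p = 0.057), WT1-high array 8 (0.052) or WT1-negative array 14 (0.061).

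A smaller set ran the other way. Ctss was 2.42-fold higher in WT1-high than in WT1-negative cells (log2 difference 1.28, SE 0.36, limma adjusted p = 0.0096) and 8.09-fold higher in WT1-intermediate cells (3.02, SE 0.36, limma adjusted p = 3.3e-05). Ctsk in WT1-intermediate cells was 2.62-fold above WT1-negative cells (1.39, SE 0.35, limma adjusted p = 0.0053) and did not differ beyond the spread in WT1-high cells (0.07, 95% interval -0.70 to 0.83). Npc2, the soluble carrier that hands cholesterol to the transporter NPC1, was 10.14, 10.58 and 10.37 in WT1-high cells, 10.97, 10.44 and 10.47 in WT1-intermediate cells, and 9.32, 8.70 and 9.33 in WT1-negative cells. The in vivo groups overlapped and lay above culture, by 1.25 and 1.51 (SE 0.22 each, limma adjusted p = 0.00047 and 0.00013).

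Sgsh encodes sulfamidase, a heparan sulfate sulfatase. Its levels were 6.17, 6.19 and 6.30 in WT1-high cells, 6.12, 6.06 and 5.40 in WT1-intermediate cells, and 5.41, 4.68 and 4.92 in WT1-negative cells. WT1-high cells lay above culture by 1.21 (SE 0.23, limma adjusted p = 0.00079), and WT1-intermediate cells by 0.85 (SE 0.23, limma adjusted p = 0.0075), although WT1-intermediate array 30 fell just below WT1-negative array 3. Gaa, the acid alpha-glucosidase that degrades glycogen and a close neighbour of Sgsh on chromosome 11 (2 protein-coding genes between them), was higher by 0.74 and 0.76. Scarb2, which encodes the membrane protein that carries beta-glucocerebrosidase to the lysosome, was higher by 0.59 and 0.77. Naglu, the alpha-N-acetylglucosaminidase of heparan sulfate breakdown, was higher in WT1-intermediate cells by 0.47 (limma adjusted p = 0.024). This call was lost without WT1-intermediate array 30 (limma adjusted p = 0.081), WT1-negative array 11 (0.078) or WT1-negative array 14 (0.065). With scaling of arrays by their medians in place of quantile normalisation, the calls of Gaa, Scarb2, Lamp2 and Naglu in WT1-intermediate cells were lost, leaving 4 genes called higher.

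Of the 10 genes with the E-box core in their promoter window, Lamp1, Lgmn, Ctsl, Glb1, Gla and Ctsd were called lower in WT1-high than in WT1-negative cells, Gaa and Sgsh higher, and Naglu and Ctsa were not called, where 32.1% of all symbols were called lower and 27.6% higher. Ctsa was uncalled by its brightest probe alone, its other 4 probes being called lower. The 10 genes did not share 1 direction.

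**Figure D3:**
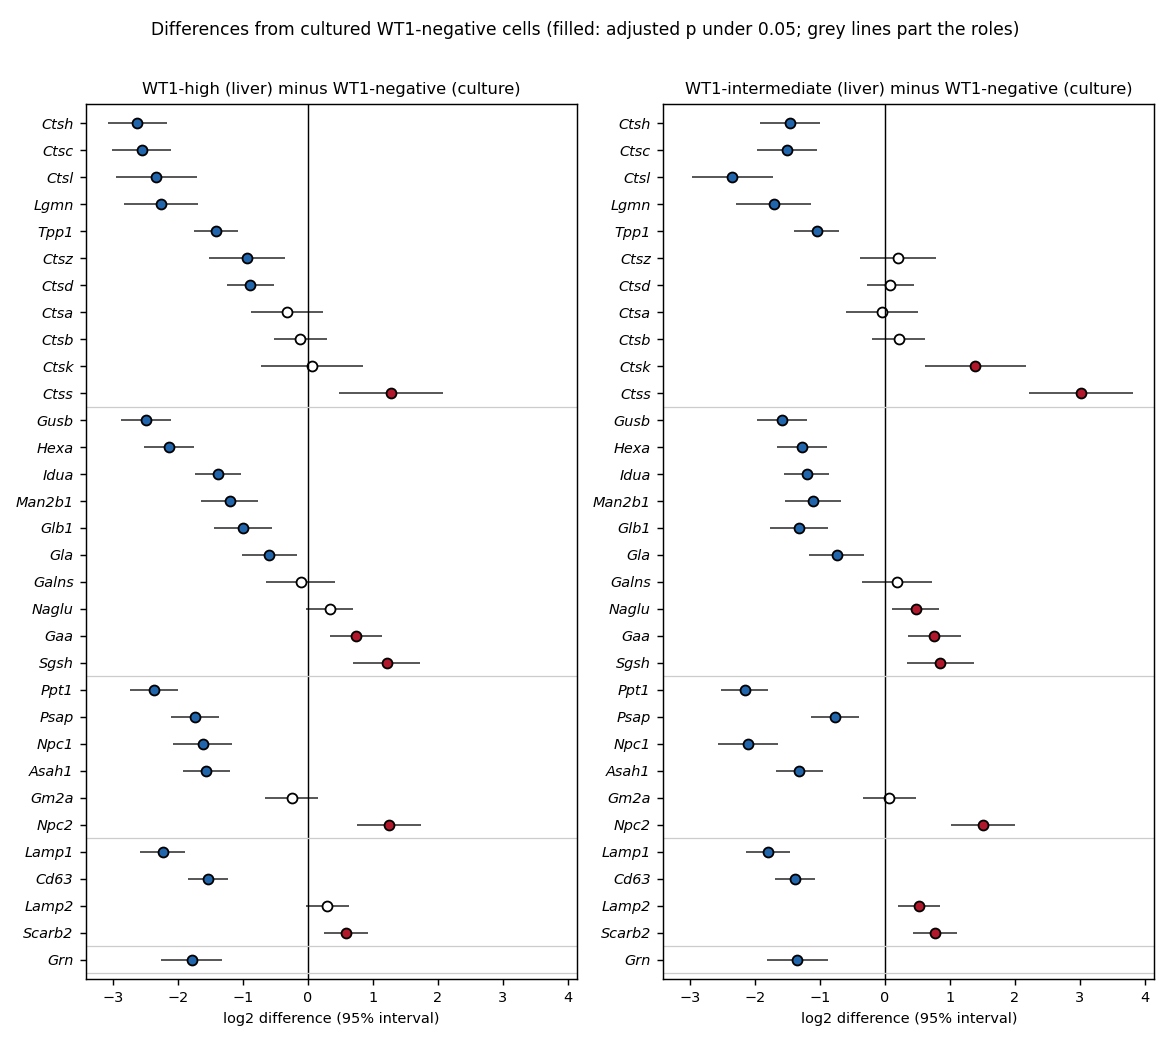
Log2 differences from cultured WT1-negative cells, with 95% intervals, for WT1-high (left) and WT1-intermediate cells (right), in the same gene order and grouped by role. Ctsl and Ppt1 sit at about the same place in both panels, Ctsh, Ctsc and Gusb lie further left in WT1-high cells, and Ctss lies further right in WT1-intermediate cells (3.02).

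For 4 genes the result against WT1-negative cells depended on the probe. Lamp2, a LAMP protein made in several splice forms, had 7 detected probes. The brightest had levels of 11.91 ± 0.10 (WT1-high), 12.13 ± 0.03 (WT1-intermediate) and 11.60 ± 0.16 (WT1-negative) (SD, n = 3 arrays each) and was called higher in WT1-intermediate cells (0.53, limma adjusted p = 0.0077). A pair of probes annotated to another RefSeq transcript of Lamp2 went the opposite way. They differed from culture by -1.52 and -1.56 (WT1-high) and by -1.49 and -1.59 (WT1-intermediate), with limma adjusted p from 5.2e-06 to 9.6e-06. A further probe annotated to that same transcript was higher in vivo, by 0.92 and 1.07, so the annotation does not part the probes cleanly.

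Npc1, the membrane cholesterol transporter of Niemann-Pick disease type C, was given by a probe with levels of 10.10, 9.78 and 9.78 in WT1-high cells, 9.24, 9.74 and 9.20 in WT1-intermediate cells, and 11.66, 11.17 and 11.68 in WT1-negative cells. All in vivo arrays lay below culture by this probe, with differences of -1.62 and -2.11 (SE 0.20 each, limma adjusted p = 4e-05 and 6.4e-06). A dimmer probe annotated to the same Npc1 transcript was higher in vivo by 1.25 and 1.64, and was also called. The direction for Npc1 is therefore uncertain. For Ctsa, the carboxypeptidase that protects beta-galactosidase and neuraminidase, the brightest probe differed from culture by -0.32 and -0.05 and was not called, whereas the other 4 probes were called lower in both in vivo groups, the largest difference being -3.37. For Ctsb, the gene of cathepsin B, the brighter probe differed by -0.11 and 0.21 and was not called. The dimmer Ctsb probe was detected on WT1-negative arrays alone. There it was at least 1.86-fold higher than in WT1-high cells and at least 1.85-fold higher than in WT1-intermediate cells. It passed the detection filter through that group, so its test against culture adds no support.

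**Figure D4:**
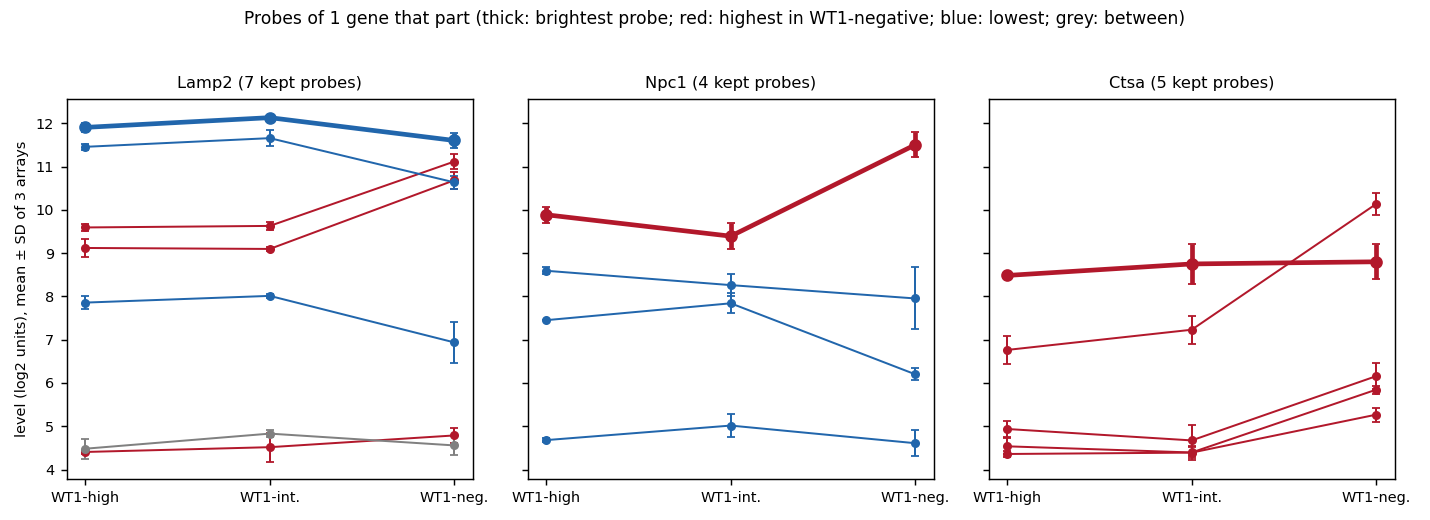
Level of every detected probe of Lamp2, Npc1 and Ctsa (vertical axis, log2 units, mean ± SD of 3 arrays) in the 3 WT1 groups, with the brightest probe as the thick line. From WT1-intermediate to WT1-negative cells the lines of Lamp2 and Npc1 part, rising for some probes (red) and falling for others (blue), while the brightest Ctsa probe stays near level and the other 4 rise.

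Other genes of the organelle were counted in the same way (65 genes with a detected probe in 6 lists). Within the in vivo pair 1 was called higher and 4 lower, with a median difference of -0.21. Over all gene symbols, 0.962% were called higher and 2.87% lower, so the count called higher lay near that share. The 4 were Cd68 (-2.12), Slc11a1 (-1.64), Dnase2a (-1.51) and Laptm5 (-0.91). Cd68, Slc11a1 and Laptm5 encode membrane proteins of lysosomes and phagosomes that are known chiefly from phagocytes and other blood cells, and Dnase2a encodes the acid nuclease that digests engulfed DNA. The gene called higher was Laptm4b (0.65), which encodes a widely made lysosomal membrane protein. The proton pump that acidifies the lysosome, the V-ATPase, showed 0 calls among 14 subunit genes in limma's test (3 at an unadjusted p under 0.05). Enzyme sorting genes, which include the mannose 6-phosphate receptors M6pr and Igf2r, showed 0 among 12 (3 at an unadjusted p under 0.05). At that unadjusted threshold 2578 of all 14659 gene symbols passed. Since the share of all symbols called was small, 0 calls in lists of this size says little about these genes.

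Against WT1-negative cells, where 32.1% and 32% of all gene symbols were called lower and 27.6% and 25.9% higher, 10 of the 14 V-ATPase subunits were lower in WT1-high cells and 10 in WT1-intermediate cells, and 0 were higher in either. The largest subunit difference was that of Atp6v1b2, -1.65 for WT1-high cells and -1.10 for WT1-intermediate cells. Of 19 other hydrolases, 9 were lower and 4 higher in WT1-high cells, and 7 were lower and 7 higher in WT1-intermediate cells, the latter shares being near those of all symbols. Ids, the iduronate sulfatase, and Smpd1, the acid sphingomyelinase, were both higher by 1.30 in WT1-high cells, and Dnase2a was lower by 2.16. Of the 12 sorting genes, 6 were lower and 3 higher in WT1-high cells. In WT1-intermediate cells 4 were lower and 4 higher, near the shares of all symbols. Sort1, the gene of the sorting receptor sortilin, was on the lower side in WT1-high cells. Gnptab, which encodes the enzyme that starts the mannose 6-phosphate tag, was on the higher side there at 0.77. Of 14 other lysosomal membrane protein genes, 10 were lower and 1 higher in WT1-high cells, and 6 and 1 in WT1-intermediate cells. The largest rises in that list were 3.68 and 3.03. Its member Cd68 was the lowest of all, at -4.87 and -2.75.

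Of 5 inhibitors of cathepsins and related proteases, 3 were called higher and 2 lower in WT1-high than in cultured cells, and 3 higher and 1 lower in WT1-intermediate cells. Over all gene symbols, 27.6% were called higher and 32.1% lower in WT1-high cells, and 25.9% and 32% in WT1-intermediate cells. Serpinb6b, a serpin of the cytosol, was 9.86, 9.31 and 5.26 in WT1-high, WT1-intermediate and WT1-negative cells, a difference from culture of 4.60 and 4.06 (limma adjusted p = 7e-09 and 2.3e-08). Cst6, which encodes cystatin E/M, an inhibitor of legumain and cathepsin L, was detected on 0 WT1-negative arrays and was higher in vivo, at least 4.88-fold higher for WT1-high cells and at least 3.75-fold higher for WT1-intermediate cells. Cst3, the gene of cystatin C, was higher by 0.41 and 0.62. Serpinb6a was lower by 0.93 and 1.15, and Cstb, the gene of cystatin B, was lower by 0.62 in WT1-high cells. Within the in vivo pair 0 of the 5 inhibitor genes were called in limma's test. At an unadjusted p under 0.05, 1 passed, beside 2578 of all 14659 gene symbols.

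**Figure D5:**
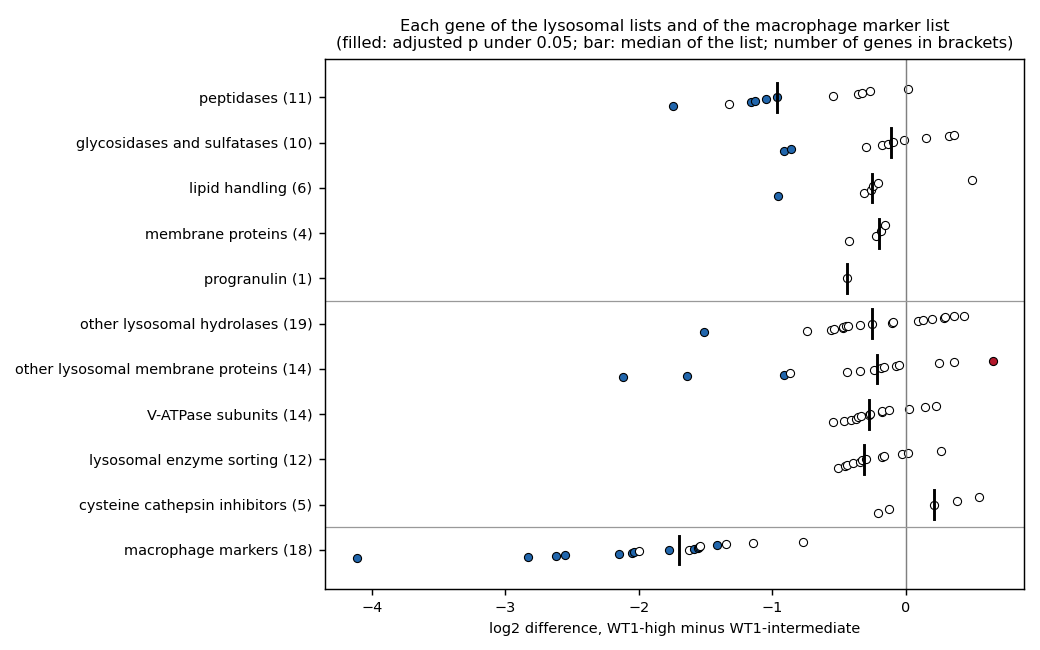
Log2 difference of WT1-high minus WT1-intermediate cells (horizontal axis) for each gene of the lysosomal roles, of the other lysosomal lists and of the macrophage marker list, with filled points for an adjusted p under 0.05 and bars at list medians. Called lysosomal genes lie between -2.12 (Cd68) and 0.65 (Laptm4b), and the median of the 18 macrophage markers is -1.70.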

How the data were processed

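Transcripts of 9 samples were measured with bead arrays (Illumina, MouseWG-6 v2.0). The deposited values were unnormalised intensity summaries from BeadStudio, exported by the authors, with a deposited detection p-value per probe. An in vivo column showed its group (GFP-low) but a number, 29, that no GFP-low label has. It stood for the WT1-intermediate array left over, called 30 here, and its detection p was computed from its negative controls, a rule that put 0 probe values of the other arrays on another side of 0.05.

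As in the study's outline, intensities were background corrected with 936 negative controls, quantile normalised and log2 transformed (neqc, offset 16, limma 3.58.1, R 4.3.3). Fits used 20573 probes (detection p under 0.05, 3 or more arrays) and 3 group levels (6 residual degrees of freedom), and limma's moderated two-sided tests were adjusted by Benjamini-Hochberg over all of them. The steps were tested on simulated data.

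Per the study, 3 animals gave the 6 in vivo samples. Deviations from group means correlated at 0.35, 0.34 and 0.47 within number pairs (29 with 30) and at -0.39 to 0.03 otherwise, so the numbers were taken as pairs. Culture replicates are, per the study, separate cell isolations.

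Named genes were all list members by role, with array values for the 3 largest called differences per direction and comparison and at least 1 member per role. For other lists, genes with the largest called change were named, and other examples were picked with their values in view. Members and lists were chosen with earlier results of these data known. Other lysosomal genes were matched by symbol (70), Entrez ID (4) or synonym (2), and 2 had no probe.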

Additional observations from a re-analysis of the deposited data

How the results depend on the processing

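Across 20 alternatives, the counts of lysosomal genes called lower between WT1-high and WT1-intermediate cells moved from 8 to 5 with median scaling and to 5 with no filter on dim probes, and ranged from 4 to 9 when single arrays were left out. The count called higher in WT1-intermediate over WT1-negative cells moved from 8 to 4 with median scaling. Lamp2 was reversed in that comparison when the probe of largest variance stood for each gene (-1.59). Of called genes, 2 of 8, 23 of 25 and 21 of 26 kept their call under every alternative, in the order WT1-high against WT1-intermediate, WT1-high against WT1-negative and WT1-intermediate against WT1-negative. Scaling moved the median of all probes in the last comparison from -0.13 to at most -0.01. With the random replicate block (consensus correlation 0.38), 0 genes were called higher and 9 lower between WT1-high and WT1-intermediate cells, with a median of -0.30. With the numbers 1 and 8 as a fixed replicate block 8 were lower, and with animals as a fixed replicate block 9. Beyond the addition of Ctsk, pairing changed no call. Median differences without single arrays ranged from -0.37 to -0.22, -1.23 to -1.01 and -0.95 to -0.83 in the same order. For genes called higher against WT1-negative cells, the ranges without single arrays were 5 to 5 in WT1-high and 7 to 8 in WT1-intermediate cells, and for genes called lower 19 to 20 and 18 to 18. The cause of these changes was not tested. With 3 arrays per group, differences of dim probes such as those of Gla, Ctsl, Sgsh and Ctsd (5.91 in WT1-high cells) are close to the background and may be understated.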
